A study of Mus musculus with 8 samples.

Results

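Ribosome biogenesis and nucleolar genes were examined in E14 mouse ESCs that were moved from serum to 2i. The set holds 44 genes, chosen by name for their roles in transcription by RNA polymerase I, in small nucleolar ribonucleoprotein (snoRNP) particles, and in the processing of ribosomal RNA (rRNA). The rule that picks them uses no measured value. The genes, the lists set beside them, and the tests were nevertheless chosen with earlier results of these data known. All 44 were found by symbol among the 37263 Ensembl genes of the deposited count tables, and all 44 passed the filter on low counts described below. The set contains 6 genes of RNA polymerase I transcription, 3 of the box C/D snoRNPs, 4 of the box H/ACA snoRNPs, 5 nucleolar chaperones and scaffolds, 12 factors of the small ribosomal subunit, 10 of the large subunit, and 4 other nucleolar factors.

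E14 is a feeder-independent ESC line of 129/Ola origin, and every library came from this 1 line. 2i medium lacks serum and carries leukemia inhibitory factor (LIF), PD0325901, an inhibitor of MEK, and CHIR99021, an inhibitor of GSK3. Cells were taken at 4, 16, 24, and 32 hr after the change of medium, either in 2i alone or in 2i with 17 µM vitamin C (vitC), and each of the 8 combinations has 1 library. No serum library was analysed here, so that the earliest reference is 4 hr in 2i. With 1 library per combination there were no replicate cultures, and the tests below take their error from how far both treatments depart from 1 shared time course.

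Ribosomes are assembled in the nucleolus. RNA polymerase I transcribes a long precursor rRNA there, snoRNPs guide its 2′-O-methylation and pseudouridylation, and a large set of processing factors cuts and folds it into the rRNAs of the small and large subunits. The genes for these factors are transcribed by RNA polymerase II, they are known targets of the MYC family of transcription factors, and their expression is generally high in growing cells such as ESCs. Because MYC proteins bind the palindrome CACGTG, called the E-box, this motif was searched for in the promoters of the genes, together with the letters CCGGAAGT bound by ETS family factors, GCATGCGC bound by NRF1, and AAGATGGC bound by YY1. The RefSeq promoter windows of GRCm38.p6, 250 bases before to 50 bases after the start site, were read on both strands. A window was found for 37 of the 44 genes, with 45 windows in all, and no matches of different motifs overlapped in them.

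The E-box was present in 7 of the 45 windows, or 15.6%, against 7.15% of the 32851 windows of all genes. Its genes were Mybbp1a, Nop2, Pes1, Rrn3, Tsr1, Utp20, and Wdr43. Rrn3 held it at 2 positions, and in 5 of these genes (Mybbp1a, Pes1, Tsr1, Utp20, and Wdr43) it lay after the start site. The ETS letters were also present in 7 windows, or 15.6%, against 3.89% of all windows, and belonged to Ebna1bp2, Gar1, Heatr1, Nhp2, Polr1c, Rrn3, and Tsr1. The NRF1 letters were in 2 windows (Nob1 and Ubtf), or 4.44%, against 2.71% of all, and the YY1 letters in 0, against 2.75% of all. These are matches of letters in a short window and were not tested as binding sites. The following stretches show the E-box and ETS matches that lie before the start site, with 30 bases on each side as far as the start site and the match in capitals, 5′ to 3′ on the strand of the gene. The first 3 lines hold the E-box and the last 4 the ETS letters, of which the Gar1 match is on the opposite strand and so reads ACTTCCGG.
Nop2, chr6:125131793-125131858 (+): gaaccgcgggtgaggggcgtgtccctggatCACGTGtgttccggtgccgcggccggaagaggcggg
Rrn3, chr16:13780454-13780519 (+): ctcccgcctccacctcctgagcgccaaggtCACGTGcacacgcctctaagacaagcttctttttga
Rrn3, chr16:13780621-13780686 (+): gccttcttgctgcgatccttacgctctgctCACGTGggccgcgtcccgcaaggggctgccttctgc
Gar1, chr3:129831403-129831470 (-): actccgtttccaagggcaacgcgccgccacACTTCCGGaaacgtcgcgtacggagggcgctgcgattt
Heatr1, chr13:12395329-12395374 (+): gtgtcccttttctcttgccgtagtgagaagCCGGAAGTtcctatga
Nhp2, chr11:51619720-51619772 (+): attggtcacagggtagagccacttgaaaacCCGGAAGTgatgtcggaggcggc
Polr1c, chr17:46248050-46248117 (-): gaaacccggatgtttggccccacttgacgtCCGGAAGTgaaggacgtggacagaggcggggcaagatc

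Their expression is given as CPM, counts brought to a common library total with edgeR's TMM factors. The totals ranged from 4753528 to 18434932 counts, and the 44 genes together took between 0.910% and 1.31% of a library's counts. The smallest count of any of them in any library was 96. The Wilson 95% confidence interval of a single value was between ±1.28% and ±20.1% wide, and under ±5% for 200 of the 352 values. Counting error was therefore small for most of these genes, but it is not a spread between cultures. The libraries of 4 and 24 hr ran on lane 8 of the sequencer and those of 16 and 32 hr on lane 7, so that the comparisons of 24 with 4 hr and of 32 with 16 hr stay within a lane. In the comparison of 16 with 4 hr, and in any other across the lanes, time and lane cannot be told apart. The sources used here do not say whether strand was used in counting, and exons of other counted genes lie on the opposite strand at Taf1d, Nop56, Dkc1, Nhp2, Npm3, Nop14, Heatr1, Rrp9, Tsr1, Bysl, Bop1, Pes1, Wdr12, Rrp1b, Gnl3, and Mybbp1a, whose counts may hold reads of these. Introns hold snoRNA genes in Taf1d (8), Nop56 (5), Nop58 (4), Ncl (3), Wdr43 (3), Gnl3 (3), Tsr1 (2), and Dkc1 (1), and whether reads of these were counted on the host genes was not tested. Reads on Lars2 and 2 features that vary with it took 0.0277%, 0.206%, 5.92%, and 0.564% of the counts in 2i at 4, 16, 24, and 32 hr, and 0.0113%, 7.11%, 6.37%, and 4.21% with vitC. This share was lowest in both 4 hr libraries, and its part in the results was not tested beyond the covariate given below.

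All 8 pluripotency markers examined (Pou5f1, Sox2, Nanog, Esrrb, Klf4, Zfp42, Dppa5a, and Tdgf1) were counted in every library, with a summed level of 1592 to 2000 CPM. Sox2 and Esrrb rose and Pou5f1 fell between 4 and 24 hr, and Sox2 rose and Pou5f1 and Zfp42 fell between 4 and 16 hr. Of the 7 fibroblast or feeder markers 2 rose at 16 hr and 3 at 24 hr, and their summed level was 96.4 to 116 CPM at 4 hr and 261 to 676 CPM later, most of it from Col1a1 and Col1a2, with Lum at 0 in 4 libraries. The summed level of 7 primitive endoderm markers was 11 to 13.5 CPM at 4 hr and 17.0 to 33.2 CPM later, and 2 of the 5 tested (Pdgfra and Dab2) rose at 24 hr. The summed level of 4 neural markers was 397 to 448 CPM at 4 hr and 189 to 262 CPM later, mostly from Nes and Tubb3, and all 3 tested (with Neurod1) fell at 24 hr and 2 at 16 hr. The summed level of 5 mesoderm markers was 19.3 to 23.2 CPM at 4 hr and 10.1 to 15.6 CPM later, and 1 of the 3 tested (T) fell at both times. After 4 hr the summed levels of the neural and mesoderm markers were thus lower, and those of the fibroblast and primitive endoderm markers higher. The part of these marker levels in the results was not tested. In bulk RNA a lower level can come from fewer cells of a type or from less RNA per cell, and these cannot be told apart.

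The summed level of the nucleolar genes was highest at 4 hr in both treatments. It was 13251 CPM at 4 hr in 2i, 8815 CPM at 16 hr, 10705 CPM at 24 hr, and 9357 CPM at 32 hr. With vitC it was 12668, 10327, 10534, and 9248 CPM at the same times. Both 4 hr libraries were thus above the other 6. For 31 of the 44 genes singly both 4 hr libraries were above all 6 later ones, and for 0 genes both were below. Among all 14931 genes tested these shares were 19% and 18.7%.

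**Figure D1:**
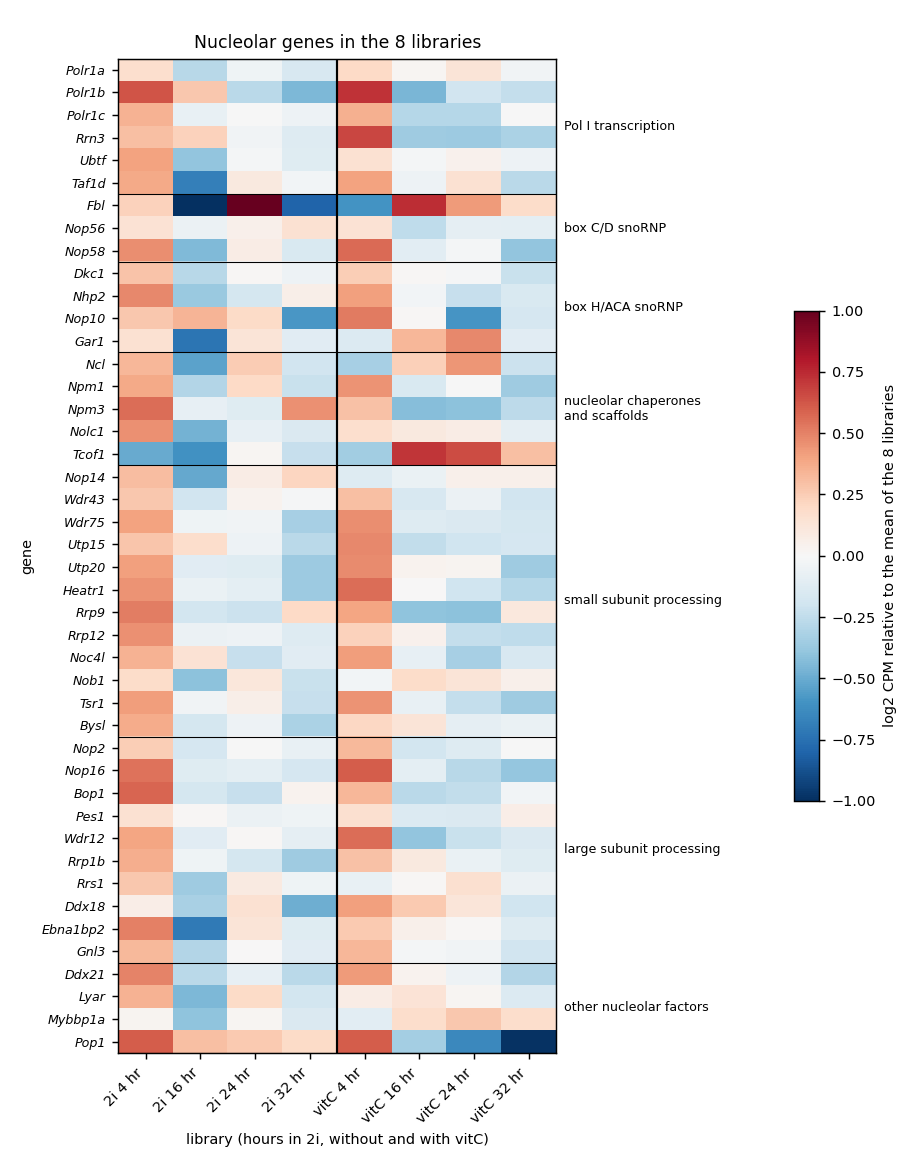
Level of each of the 44 nucleolar genes in the 8 libraries, as log2 CPM relative to the gene's mean over the libraries (colour, values beyond 1 in either direction drawn at the end of the scale). Rows are genes grouped by role and columns are libraries by time in 2i, without and with vitC. Both 4 hr columns are red for most genes, and for 31 genes both are above all later libraries, whereas Tcof1 is lowest in 2i at 4 and 16 hr and with vitC at 4 hr.

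The change with time was tested with edgeR's quasi-likelihood test in a model of time plus treatment. It was fitted to the 8 libraries over the 14931 genes that reached 1 CPM in 2 libraries or more, with 3 residual degrees of freedom and Benjamini-Hochberg adjustment over all of these genes. Between 4 and 24 hr, 20 of the 44 nucleolar genes fell with an adjusted p-value under 0.05, whereas 8.98% of all tested genes were called lower. Only Tcof1 rose, against 11.5% of all tested genes called higher. The median log2 fold change of the 44 was -0.36, against 0.01 for all tested genes, and 37 were below 0. Between 4 and 16 hr, across lanes, 20 nucleolar genes fell and 0 rose, whereas 7.24% of all tested genes were called lower. The median was then -0.47, against 0.01 for all genes, and 43 of the 44 were below 0. These comparisons share the 4 hr libraries and are not independent of each other. Before adjustment 26 of the 44 had a p-value under 0.05 at 24 hr, against 5154 of the 14931 genes tested, and 32 at 16 hr, against 4803.

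Levels below those of 4 hr were found in each treatment taken alone. In 2i alone the medians of the log2 ratio to 4 hr were -0.54, -0.34, and -0.50 after 16, 24, and 32 hr, with 43, 41, and 42 of the 44 genes lower than at 4 hr. With vitC the medians were -0.42, -0.41, and -0.48, with 35, 36, and 36 genes lower. The ratios of 16 and 32 hr to 4 hr cross lanes, and only those of 24 hr stay within a lane. For all tested genes the medians were 0.02, 0.01, and 0.01 in 2i and -0.005, -0.01, and 0.01 with vitC. Of all 14931 genes, 7308 were lower at 24 than at 4 hr in 2i and 7571 with vitC. At 24 hr, 35 genes were lower than at 4 hr in both treatments, and 2 genes, Fbl and Tcof1, were higher in both. The calls depended on single libraries. The fits without a library and the fit with a covariate, given next, have fewer residual degrees of freedom. How many of all tested genes passed in them is not given here, so that the counts cannot be set against a common share. Without the vitC library of 4 hr, or without that of 24 hr, Bop1 and Rrp9 were the only 2 called at 24 hr, and without the 2i library of 24 hr 5 were called. Between 4 and 16 hr 2 genes, again Bop1 and Rrp9, were called without the vitC library of 4 hr, 7 without the 2i library of 16 hr, and 10 without the 2i library of 4 hr. With the Lars2 share as a covariate 0 genes were called at 24 hr and 2 (Ebna1bp2 and Fbl) at 16 hr, and the median of the 44 at 24 hr was -0.64.

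**Figure D2:**
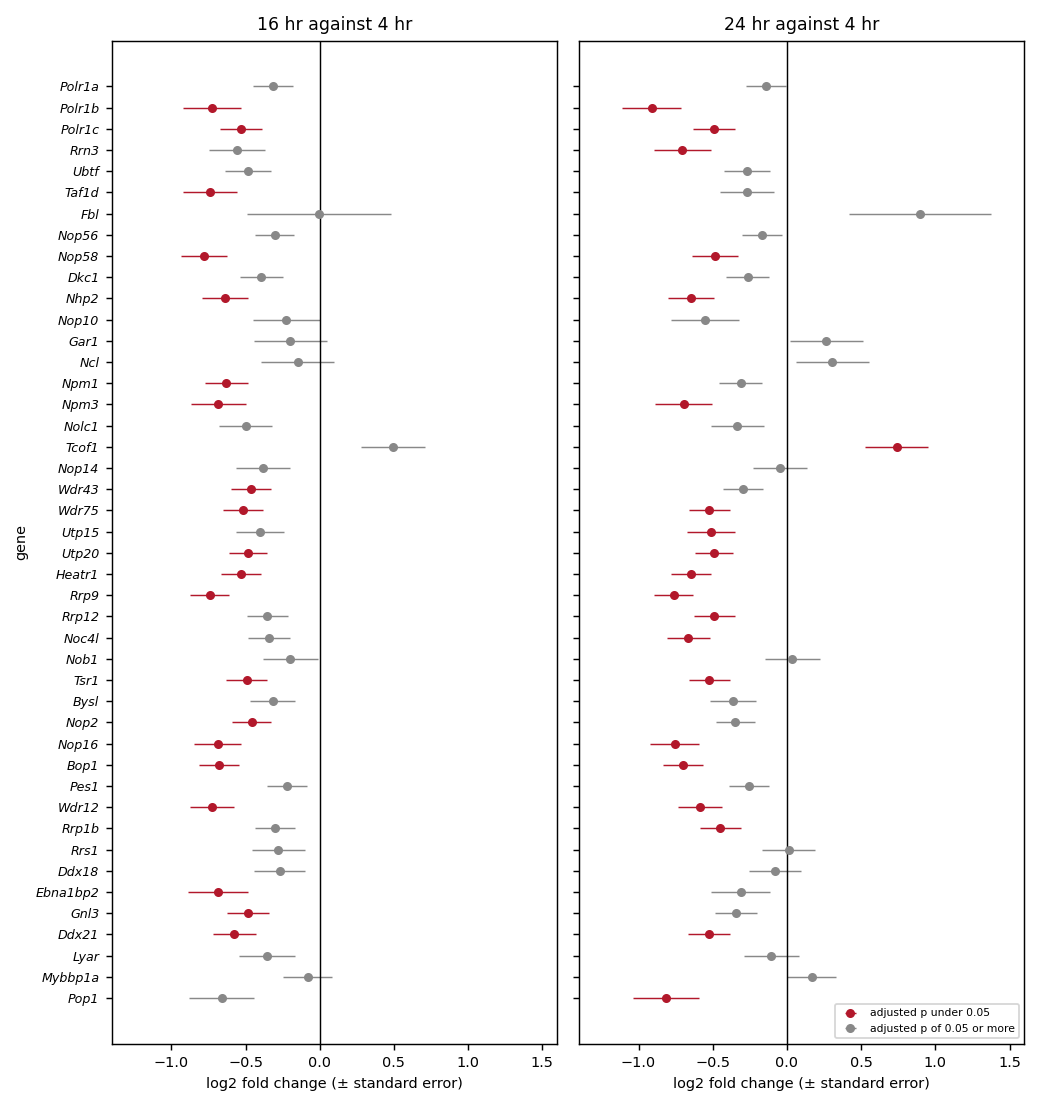
log2 fold change (points) with its standard error (bars) for each of the 44 nucleolar genes between 4 and 16 hr (left) and between 4 and 24 hr (right), from the additive model on all 8 libraries. Red points passed an adjusted p-value of 0.05, and all of them lie below 0 except Tcof1 at 24 hr.

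Of the 6 genes of RNA polymerase I transcription, Polr1b, Polr1c, and Rrn3 fell between 4 and 24 hr, and Polr1b, Polr1c, and Taf1d between 4 and 16 hr. All 6 had log2 fold changes below 0 at both times, with medians of -0.54 at 16 hr and -0.38 at 24 hr. Polr1b (ENSMUSG00000027395), which encodes the second largest subunit of the polymerase, was at 147, 114, 78.8 and 69.5 CPM in 2i at 4, 16, 24, and 32 hr and at 157, 69.2, 83.2 and 80.7 CPM with vitC. Both 4 hr libraries were above all others, and the lowest levels were in 2i at 32 hr and with vitC at 16 hr. It fell by 46.8% between 4 and 24 hr, with a log2 fold change of -0.91 (standard error 0.20, edgeR adjusted p = 0.0078), which was the lowest value among the 44. Between 4 and 16 hr the log2 fold change was -0.73 (standard error 0.20, edgeR adjusted p = 0.027).

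Rrn3 (ENSMUSG00000022682), which encodes the initiation factor TIF-IA that makes the polymerase competent to start, had the highest level per length of this group, at a mean of 64.3 CPM per kilobase of merged exons (RPKM). Its level was 332, 316, 263 and 246 CPM in 2i at 4, 16, 24, and 32 hr and at 427, 210.4, 209.5 and 217 CPM with vitC. With vitC it was near its lower level already at 16 hr, whereas in 2i it was still at 316 CPM then. The log2 fold change between 4 and 24 hr was -0.70 (standard error 0.19, edgeR adjusted p = 0.021), with single ratios of -0.34 in 2i and -1.03 with vitC. With the Lars2 share as a covariate its sign turned, to 0.29. Rrn3 is also the gene whose promoter holds the E-box at 2 positions, printed above. Polr1a (ENSMUSG00000049553), which encodes the largest subunit, moved least, from 269 to 232 CPM in 2i and from 275 to 262 CPM with vitC between 4 and 24 hr. Its log2 fold change of -0.14 (standard error 0.13, edgeR adjusted p = 0.48) did not pass. Both 4 hr libraries of Polr1a were still above the later 6. Polr1c, a subunit shared with RNA polymerase III, was at 157, 117, 123 and 119.6 CPM in 2i at 4, 16, 24, and 32 hr and at 158, 101, 102 and 123 CPM with vitC. Ubtf, the upstream binding factor of the rRNA genes, was at 383, 221, 287 and 267 CPM in 2i at 4, 16, 24, and 32 hr and at 322, 286, 299.6 and 281 CPM with vitC. Its log2 fold changes of -0.48 at 16 hr and -0.27 at 24 hr did not pass (edgeR adjusted p = 0.051 and 0.24). Taf1d, a subunit of the promoter selectivity factor SL1, was at 208, 99.6, 171 and 157 CPM in 2i at 4, 16, 24, and 32 hr and at 211, 155, 178 and 132 CPM with vitC. Other exons lie opposite to its own, and 23.2% of its stretches of read length are shared with other genes.

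Of the box C/D snoRNP proteins, which methylate rRNA, Nop58 fell at both times and the other two were not called. Nop58 (ENSMUSG00000026020), a core protein of the particle, was at 545, 292, 417 and 355 CPM in 2i at 4, 16, 24, and 32 hr and at 586, 368, 391 and 301 CPM with vitC. Its levels at 4 hr were above all later ones, and in 2i the level at 24 hr lay between those at 4 and 16 hr. The log2 fold change was -0.78 (standard error 0.15, edgeR adjusted p = 0.0064) at 16 hr and -0.48 (standard error 0.15, edgeR adjusted p = 0.043) at 24 hr. Nop56 (ENSMUSG00000027405), its partner in the core and the highest of this group per length (77.5 RPKM), was at 351, 304, 327 and 352 CPM in 2i at 4, 16, 24, and 32 hr and at 349, 265, 297 and 296 CPM with vitC. Of its stretches of read length 37.6% are shared with other genes. The 2i level at 32 hr was close to that at 4 hr, and the log2 fold change of -0.17 at 24 hr did not pass (edgeR adjusted p = 0.40). Fbl (ENSMUSG00000046865), fibrillarin, the methyltransferase itself, was at 26.8, 9.83, 46.7 and 13.1 CPM in 2i at 4, 16, 24, and 32 hr and at 15.1, 38.0, 30.7 and 25.9 CPM with vitC. It had the largest rise among the 44 at 24 hr, 0.90 with a standard error of 0.48, which did not pass (edgeR adjusted p = 0.21). Its levels varied without order in time or treatment, and 73.0% of the stretches of read length in its longest coding transcript are also in transcripts of other genes. It had the lowest level per length of the 44 (6.12 RPKM), and its values are uncertain.

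The box H/ACA snoRNP proteins, which pseudouridylate rRNA, had medians of -0.31 at 16 hr and -0.41 at 24 hr, and 1 of 4 fell at each time. This was Nhp2 (ENSMUSG00000001056), an RNA-binding core protein of the particle, at 310.1, 172, 197 and 232 CPM in 2i at 4, 16, 24, and 32 hr and at 295, 218, 189 and 199.8 CPM with vitC. All 6 later levels were below the 2 of 4 hr, and the gene was the highest of this group per length (198 RPKM). The log2 fold changes were -0.64 (standard error 0.15, edgeR adjusted p = 0.016) at 16 hr and -0.65 (standard error 0.15, edgeR adjusted p = 0.012) at 24 hr. The ETS letters in its promoter are printed above. Gar1 (ENSMUSG00000028010), another core protein, was at 56.0, 30.4, 55.1 and 46.5 CPM in 2i at 4, 16, 24, and 32 hr and at 45.9, 63.4, 70.1 and 46.7 CPM with vitC. The levels of 16 and 24 hr were above that of 4 hr with vitC and not above it in 2i, and the log2 fold change of 0.26 at 24 hr did not pass (edgeR adjusted p = 0.48). Dkc1, dyskerin, the pseudouridine synthase, was at 298, 201, 246 and 236 CPM in 2i at 4, 16, 24, and 32 hr and at 289.7, 246, 243 and 209 CPM with vitC. Both its 4 hr levels were above the later ones, but the changes did not pass (edgeR adjusted p = 0.081 at 16 hr and 0.22 at 24 hr). Nop10, the smallest protein of the particle, was at 148, 154, 139.7 and 81.9 CPM in 2i at 4, 16, 24, and 32 hr and at 175, 123, 81.1 and 109 CPM with vitC, and its lowest level was at 32 hr in 2i and at 24 hr with vitC.

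Among the chaperones and scaffolds, Npm1 and Npm3 fell between 4 and 16 hr, and between 4 and 24 hr Npm3 fell and Tcof1 rose. Npm1 (ENSMUSG00000057113), nucleophosmin, a histone chaperone that builds the outer layer of the nucleolus, had the highest level per length of all 44 (402 RPKM). It was at 1364, 859, 1207 and 899 CPM in 2i at 4, 16, 24, and 32 hr and at 1430.1, 947, 1047 and 820.4 CPM with vitC. Both 4 hr levels were above all later ones, and both 24 hr levels were above those of 16 and 32 hr in the same treatment. The libraries of 16 and 32 hr ran on the other lane, so that time and lane cannot be told apart there. The log2 fold change was -0.63 (standard error 0.14, edgeR adjusted p = 0.013) at 16 hr and -0.31 (standard error 0.14, edgeR adjusted p = 0.15) at 24 hr. Of the stretches of read length, 40.9% in Npm1 are shared with other genes, and 36.1% in Npm3. Npm3 (ENSMUSG00000056209), a related chaperone of lower level, was at 40.3, 25.8, 25.1 and 37.5 CPM in 2i at 4, 16, 24, and 32 hr and at 33.4, 20.3, 20.6 and 22.8 CPM with vitC. At 32 hr it was near its 4 hr level in 2i and below it with vitC. The log2 fold changes were -0.70 (standard error 0.19, edgeR adjusted p = 0.022) at 24 hr and -0.68 (standard error 0.19, edgeR adjusted p = 0.027) at 16 hr.

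Tcof1 (ENSMUSG00000024613), treacle, a scaffold that joins RNA polymerase I with its upstream factors and is mutated in Treacher Collins syndrome, was at 64.2, 59.9, 92.2 and 77.4 CPM in 2i at 4, 16, 24, and 32 hr and at 71.5, 149, 143 and 112 CPM with vitC. The highest levels were with vitC at 16 and 24 hr and the lowest in 2i at 4 and 16 hr. Between 4 and 24 hr it was 1.67-fold higher, with a log2 fold change of 0.74 (standard error 0.21, edgeR adjusted p = 0.028), with single ratios of 0.52 in 2i and 1.00 with vitC. With the Lars2 share as a covariate the value was -0.49. Ncl, nucleolin, was at 1349.8, 740.4, 1281 and 939 CPM in 2i at 4, 16, 24, and 32 hr and at 850.0, 1267, 1456 and 925 CPM with vitC. The 4 hr libraries themselves differed, with the 2i library among the highest and the vitC library among the lowest, and the change at 24 hr did not pass (log2 fold change 0.31, edgeR adjusted p = 0.41). Nolc1, a chaperone of snoRNPs, was at 380.4, 199.8, 261 and 251 CPM in 2i at 4, 16, 24, and 32 hr and at 311, 297, 291 and 260.0 CPM with vitC, without a call.

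**Figure D3:**
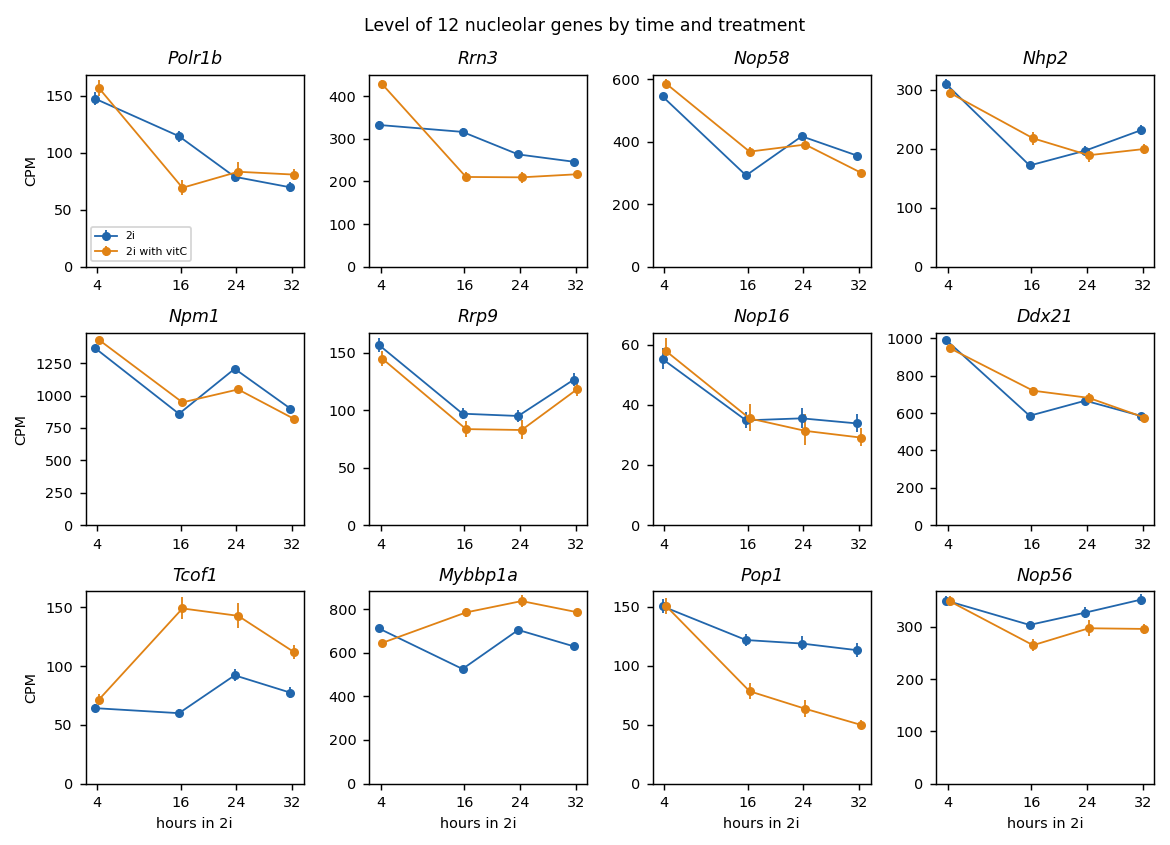
Level in CPM (vertical axis, from 0) against hours in 2i (horizontal axis) for 12 nucleolar genes, in 2i (blue) and in 2i with vitC (orange). Each point is 1 library and each bar its Wilson 95% interval, which covers counting error only. In 9 of the panels both 4 hr points are above all later ones, and Tcof1, Mybbp1a, and Pop1 are panels in which the treatments part after 4 hr.

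Of the 12 factors of the small subunit, 8 fell between 4 and 24 hr (Wdr75, Utp15, Utp20, Heatr1, Rrp9, Rrp12, Noc4l, and Tsr1), with a median of -0.50. Between 4 and 16 hr 6 fell (Wdr43, Wdr75, Utp20, Heatr1, Rrp9, and Tsr1), with a median of -0.43. Most of these proteins belong to the small subunit processome, the large particle that assembles on the 5′ end of the precursor rRNA. Rrp9 (ENSMUSG00000041506), a protein of the U3 snoRNP that guides the first cuts, was at 157, 97.0, 95 and 127 CPM in 2i at 4, 16, 24, and 32 hr and at 145, 83.6, 82.8 and 118 CPM with vitC. The levels of 16 and 24 hr were lowest in both treatments, and those of 32 hr lay between them and 4 hr. Its log2 fold change was -0.76 (standard error 0.13, edgeR adjusted p = 0.0023) at 24 hr, the smallest p-value among the 44 for this comparison, and -0.74 (standard error 0.13, edgeR adjusted p = 0.0038) at 16 hr. It was called without each of the 8 libraries in turn in both comparisons.

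Tsr1 (ENSMUSG00000038335), a late-acting GTPase-like factor of the pre-40S particle and the highest of the group per length (79.9 RPKM), was at 402, 293, 313 and 257 CPM in 2i at 4, 16, 24, and 32 hr and at 411, 286, 254 and 236 CPM with vitC. Of its stretches of read length 31.1% are shared with other genes. The later levels were all below those of 4 hr, and the log2 fold change was -0.52 (standard error 0.14, edgeR adjusted p = 0.019) at 24 hr and -0.49 (standard error 0.14, edgeR adjusted p = 0.030) at 16 hr. Nob1 (ENSMUSG00000003848), the endonuclease that makes the final 3′ end of 18S rRNA, was at 68.4, 45.3, 65.0 and 51.7 CPM in 2i at 4, 16, 24, and 32 hr and at 59.0, 68.4, 66.1 and 62.6 CPM with vitC. It was the only 1 of the 12 above 0 at 24 hr, where its log2 fold change of 0.04 did not pass (edgeR adjusted p = 0.91). Heatr1, a processome subunit that is also needed for RNA polymerase I transcription, was at 495, 348, 340.3 and 283 CPM in 2i at 4, 16, 24, and 32 hr and at 535, 365, 317 and 298 CPM with vitC. In both treatments the level at 32 hr was below that at 24 hr. Utp20, one of the largest proteins of the particle, was at 572, 397, 396 and 334 CPM in 2i at 4, 16, 24, and 32 hr and at 598, 440.0, 437 and 336 CPM with vitC, with the E-box of its promoter after the start site. The remaining genes, Wdr43, Wdr75, Utp15, Noc4l, Rrp12, Nop14, and Bysl, had log2 fold changes between -0.67 (Noc4l) and -0.04 (Nop14) at 24 hr.

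Of the 10 factors of the large subunit, 4 fell between 4 and 24 hr (Nop16, Bop1, Wdr12, and Rrp1b) and 6 between 4 and 16 hr (Nop2, Nop16, Bop1, Wdr12, Ebna1bp2, and Gnl3), with medians of -0.35 and -0.47. Bop1, Pes1, and Wdr12 form the PeBoW complex, which is needed for the maturation of 5.8S and 28S rRNA. Bop1 (ENSMUSG00000022557) was at 229.9, 136, 131 and 157 CPM in 2i at 4, 16, 24, and 32 hr and at 194, 128, 129.5 and 151 CPM with vitC. All later levels of Bop1 were below those of 4 hr, with a log2 fold change of -0.70 (standard error 0.13, edgeR adjusted p = 0.0041) at 24 hr and -0.68 (standard error 0.13, edgeR adjusted p = 0.0062) at 16 hr. Wdr12 was at 131, 92.1, 100.2 and 93.5 CPM in 2i at 4, 16, 24, and 32 hr and at 146, 75.6, 84.9 and 89.7 CPM with vitC. It fell as well, with a log2 fold change of -0.58 (standard error 0.15, edgeR adjusted p = 0.016) at 24 hr and -0.73 (standard error 0.15, edgeR adjusted p = 0.0074) at 16 hr. Pes1 was at 225, 204, 194 and 196 CPM in 2i at 4, 16, 24, and 32 hr and at 226, 184, 183 and 212 CPM with vitC. Its 4 hr levels were the highest, but neither change passed (-0.26 at 24 hr and -0.22 at 16 hr, edgeR adjusted p = 0.20 and 0.29). Of the stretches of read length in Pes1, 22.6% are shared with other genes. The 3 genes of the complex therefore differed in their calls, and whether they differed in their change was not tested.

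Nop16 (ENSMUSG00000025869), a pre-60S factor, was at 55.2, 34.8, 35.5 and 33.8 CPM in 2i at 4, 16, 24, and 32 hr and at 57.8, 35.4, 31.3 and 29.1 CPM with vitC. The 6 later levels were close to each other and all below 4 hr, with a log2 fold change of -0.76 (standard error 0.16, edgeR adjusted p = 0.0076) at 24 hr. Nop2 (ENSMUSG00000038279), an rRNA methyltransferase and the highest of the group per length (111 RPKM), was at 359.7, 270.2, 304 and 288 CPM in 2i at 4, 16, 24, and 32 hr and at 381, 268, 278 and 303 CPM with vitC. It was called at 16 hr, with a log2 fold change of -0.46 (standard error 0.13, edgeR adjusted p = 0.034), and not at 24 hr, with -0.35 (standard error 0.13, edgeR adjusted p = 0.082). The E-box of its promoter, before the start site, is printed above. Rrs1 (ENSMUSG00000061024), which helps to bring the 5S particle into the subunit, was at 58.5, 37.8, 51.7 and 47.1 CPM in 2i at 4, 16, 24, and 32 hr and at 46.0, 49.0, 54.0 and 46.5 CPM with vitC. The log2 fold change at 24 hr was 0.01 (edgeR adjusted p = 0.97). Gnl3, nucleostemin, a GTPase known for its high expression in stem cells, was at 257, 167, 205 and 189.7 CPM in 2i at 4, 16, 24, and 32 hr and at 258, 202, 201 and 179.6 CPM with vitC, and its 4 hr levels were above all later ones. Ddx18, an RNA helicase, was at 41.9, 31.9, 44.4 and 28.5 CPM in 2i at 4, 16, 24, and 32 hr and at 53.1, 47.8, 43.5 and 34.9 CPM with vitC, but 62.7% of its stretches of read length are shared with other genes and its values are uncertain.

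Of the 4 other nucleolar factors, Ddx21 and Pop1 fell between 4 and 24 hr, and Ddx21 between 4 and 16 hr. Ddx21 (ENSMUSG00000020075), an RNA helicase that acts in both RNA polymerase I and II transcription and the highest of the 4 per length (139 RPKM), was at 992, 585, 666 and 584 CPM in 2i at 4, 16, 24, and 32 hr and at 948, 719.7, 681 and 576 CPM with vitC. Later levels were between 576 and 720 CPM, below both of 4 hr, with a log2 fold change of -0.53 (standard error 0.14, edgeR adjusted p = 0.022). Pop1 (ENSMUSG00000022325), the largest protein of RNases MRP and P, was at 150.5, 122, 119 and 113 CPM in 2i at 4, 16, 24, and 32 hr and at 151, 78.4, 63.5 and 49.8 CPM with vitC. It fell between 4 and 24 hr, with a log2 fold change of -0.82 (standard error 0.22, edgeR adjusted p = 0.022), and the single ratios were -0.34 in 2i and -1.25 with vitC. Mybbp1a (ENSMUSG00000040463), a nucleolar binding partner of MYB, was at 711, 525, 704 and 629 CPM in 2i at 4, 16, 24, and 32 hr and at 645, 785, 837 and 785 CPM with vitC. Its log2 fold change of 0.17 at 24 hr did not pass (edgeR adjusted p = 0.51). Lyar, a nucleolar zinc finger protein, was at 131, 75.6, 118 and 91.2 CPM in 2i at 4, 16, 24, and 32 hr and at 109, 114, 105 and 93.9 CPM with vitC, without a call.

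The only change after 16 hr that was tested was that between 16 and 32 hr, within a lane. In this comparison 0 of the 44 passed with edgeR or with DESeq2. Changes within this span were not tested. With edgeR 0.583% of all tested genes passed. At an unadjusted p-value under 0.05 there were 5 of the 44 and 2128 of the 14931 genes tested, so that the share of the 44 was not above that of all genes. The median log2 fold change was -0.01, and 43 of the 44 lay within 0.5 of 0. The exception, Nop10, had a log2 fold change of -0.53 (standard error 0.23, edgeR adjusted p = 0.32). In 2i the median ratio was 0.15 and with vitC -0.17, with the 2i library of 16 hr holding the lowest summed level of all 8. A missing call does not show that the levels were equal, as the standard errors of single genes were 0.13 to 0.49.

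The vitC libraries held no called difference from 2i among the nucleolar genes. In a model with time as a block, 0 of the 44 passed with edgeR, against 0.167% of all tested genes. With DESeq2 2 of the 44 passed (Pop1 and Tcof1), and the share of all genes that passed with DESeq2 is not given here. An unadjusted p-value under 0.05 was found for 4 of the 44 and 2062 of the 14931 genes tested, again no larger a share than among all genes. The median log2 fold change of vitC against 2i was 0.01, against -0.02 for all genes, and at the single times the medians were 0.00, 0.14, -0.09, and -0.01 at 4, 16, 24, and 32 hr. For 42 of the 44 genes the change lay within 0.5 of 0, and Pop1 and Tcof1 were the exceptions.

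Pop1 was equal in both treatments at 4 hr and lower with vitC at each later time, with log2 ratios of 0.00, -0.64, -0.90, and -1.18 at 4, 16, 24, and 32 hr. Over all times the log2 fold change was -0.67 (standard error 0.16, edgeR adjusted p = 0.082), and without the 4 hr pair it passed. Tcof1 was higher with vitC at all 4 times, with log2 ratios of 0.16, 1.31, 0.63, and 0.53. Over all times the log2 fold change was 0.66 (standard error 0.15, edgeR adjusted p = 0.077). Without the 4 hr pair Tcof1 passed as well. The next 3 genes by p-value did not pass. Npm3 was lower with vitC at all 4 times, with a log2 fold change of -0.41 (standard error 0.13, edgeR adjusted p = 0.19). Ddx18 was higher at 4, 16, and 32 hr and lower at 24 hr, with a value of 0.30 (standard error 0.12, edgeR adjusted p = 0.31). Mybbp1a was lower at 4 hr and higher at the other times, with a value of 0.25 (standard error 0.12, edgeR adjusted p = 0.37). Whether the effect of vitC grew or shrank with hours, tested as a linear term with 2 residual degrees of freedom, gave calls for 0 of the 44 with edgeR and with DESeq2 and for 0% of all tested genes with edgeR. 1 of the 44 and 431 of all genes had an unadjusted p-value under 0.05 with edgeR. The gene was Pop1, with a change of -0.04 on the log2 scale per hr.

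A wider list of 138 other ribosome biogenesis genes, of which 133 were matched and 132 tested, was compared in the same fit. Of these 48 fell and 1 rose between 4 and 24 hr, with a median log2 fold change of -0.37, and 48 fell and 1 rose between 4 and 16 hr, across lanes, with a median of -0.46. Among all tested genes 8.98% were called lower and 11.5% higher at 24 hr, and 7.24% were called lower at 16 hr. The median of all tested genes was 0.01 at both times. Between 16 and 32 hr and with vitC 0 passed with edgeR, and 9 and 13 had an unadjusted p-value under 0.05, smaller shares than the 2128 and 2062 of all 14931 genes. By role, 4 of 13 genes of RNA polymerase I transcription fell at 24 hr, 18 of 46 of the small subunit, 17 of 51 of the large subunit, 5 of 13 of the RNA exosome, and 4 of 9 of the RNases MRP and P. The 3 with the largest falls were Eif6, Snu13, and Nifk. Eif6, which keeps the large subunit from joining the small one too early, was at 264, 184, 121 and 140.2 CPM in 2i at 4, 16, 24, and 32 hr and at 278, 102, 87.7 and 145 CPM with vitC. It changed by -1.401 (standard error 0.21, edgeR adjusted p = 0.00089) on the log2 scale at 24 hr. Snu13, which binds the box C/D snoRNAs, was at 33.8, 29.6, 18.2 and 39.5 CPM in 2i at 4, 16, 24, and 32 hr and at 48.9, 16.9, 19.3 and 28.4 CPM with vitC and changed by -1.17 (standard error 0.28, edgeR adjusted p = 0.012). Nifk, an RNA-binding protein of large subunit precursors, was at 220.3, 117, 121 and 94.2 CPM in 2i at 4, 16, 24, and 32 hr and at 239, 119.9, 104 and 103 CPM with vitC and changed by -1.02 (standard error 0.14, edgeR adjusted p = 0.00068). The 1 that rose was Pelp1, a scaffold in late large subunit maturation, at 61.4, 76.6, 87.2 and 69.8 CPM in 2i at 4, 16, 24, and 32 hr and at 67.7, 125, 121 and 115 CPM with vitC, with 0.66 (standard error 0.16, edgeR adjusted p = 0.013).

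Promoter windows were found for 114 genes of this wider list, and 17.5% of these windows held the E-box and 27.0% the ETS letters. Among 76 genes of cytosolic ribosomal proteins, 56 had a window. The E-box was in 12.1%, the ETS letters in 16.7%, and the YY1 letters in 10.6% of their 66 windows. Of the 76 ribosomal protein genes, 9 fell and 0 rose between 4 and 24 hr, a share close to the 8.98% of all tested genes called lower, with a median of -0.19, which was -0.03 in 2i and -0.45 with vitC. Between 4 and 16 hr 13 fell and 0 rose, with a median of -0.38, against 7.24% of all tested genes called lower. Their summed level was 18754, 14032, 18924, and 19648 CPM in 2i at 4, 16, 24, and 32 hr, and 17966, 14121, 13915, and 17272 CPM with vitC. In 2i the summed level at 24 hr was close to that at 4 hr, whereas with vitC it was lower. The difference from the nucleolar genes was not tested. Stretches of read length shared with other genes were examined only for the nucleolar genes, so that this limit is unknown for the wider list and the ribosomal protein genes.

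**Figure D4:**
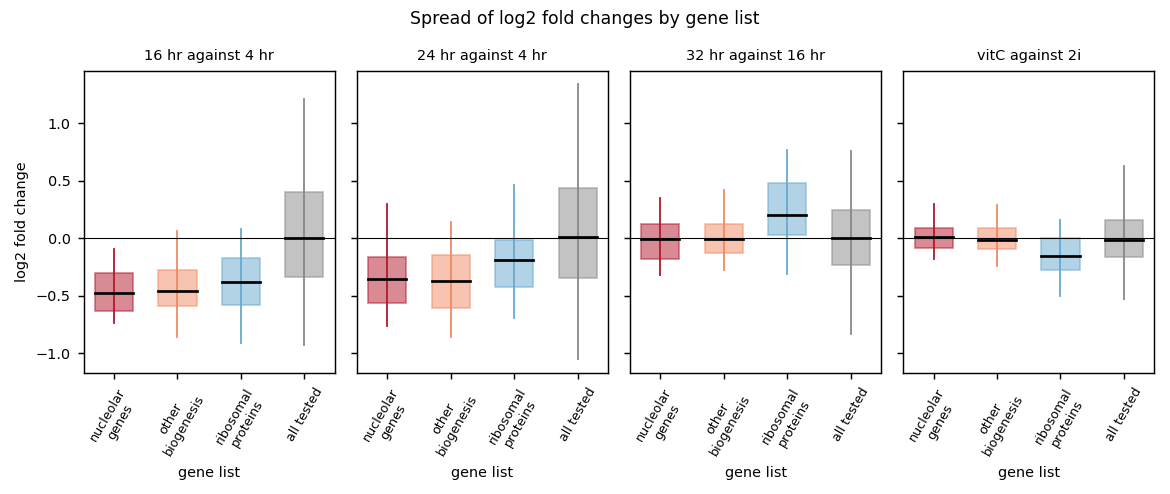
Spread of the log2 fold change over genes (vertical axis) for the 44 nucleolar genes, the 132 other biogenesis genes, the 76 cytosolic ribosomal protein genes, and all 14931 tested genes, in 4 comparisons. Boxes hold the 25th to 75th percentile with the median as a line, and whiskers reach the 5th and 95th percentile. The boxes of the nucleolar and other biogenesis genes lie below 0 at 16 and 24 hr against 4 hr, and around 0 between 16 and 32 hr and with vitC.

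The genes of the MYC network, whose proteins are known to bind promoters of such genes, were read in the same libraries. Myc itself was low, at 2.62, 3.36, 6.73 and 11 CPM in 2i at 4, 16, 24, and 32 hr and at 1.04, 6.77, 12.2 and 10.8 CPM with vitC. It rose between 4 and 24 hr, with a log2 fold change of 2.24 (standard error 0.47, edgeR adjusted p = 0.0063), and was above its 4 hr level in all 6 later libraries. Mycn, the more abundant by CPM, which is not scaled by length, was at 104, 68.3, 51.5 and 67.5 CPM in 2i at 4, 16, 24, and 32 hr and at 80.4, 68.4, 66.5 and 70.8 CPM with vitC. Mycn fell, with a log2 fold change of -0.66 (standard error 0.17, edgeR adjusted p = 0.018). Of the 13 genes of the network 2 rose at 24 hr (Myc and Mnt, whose protein competes with MYC for its partner MAX) and 2 fell (Mycn and Mxd3), with a median of 0.12. Among all tested genes 11.5% were called higher and 8.98% lower in this comparison. No relation between these genes and the nucleolar genes was tested.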

How the data were processed

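Total RNA of 8 cultures of E14 mouse ESCs was depleted of rRNA with Ribo-Zero Gold, made into TruSeq libraries, and sequenced as 50 bp single-end reads, per the labels. The authors deposited raw counts per Ensembl gene without normalization. The submitters' processing notes name GSNAP, HTSeq, and the mouse builds NCBIM37 and mm9. Handling of strand and of reads with several matches is not given in the sources used here.

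From the deposited counts, the 14931 genes that reached 1 CPM in 2 libraries or more were tested with edgeR 4.0.16 in R 4.3.3, using TMM scaling, the quasi-likelihood test, Benjamini-Hochberg adjustment, and a threshold of 0.05. The model for time held time and treatment, that for vitC had the times as blocks, and a linear term tested whether the effect of vitC varied with hours. Standard errors were derived from the test, as the absolute log2 fold change over the square root of the quasi-likelihood F statistic. Ratios between single libraries used a prior count of 2. The fits were tested on simulated data with known changes. Intervals are Wilson 95% intervals, which hold for counting error only, as reads counted without molecular identifiers need not come from separate molecules. p-values measure only the spread between these libraries.

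Symbols, exon lengths, and snoRNA positions came from GENCODE M21, which held 32604 of the 37263 identifiers. Lengths are of all exons merged, retained introns included, so that RPKM values of genes such as Ncl, Nop58, and Wdr12 are approximate. Coordinates are those of GRCm38 and were not used for counts. Taf1a, Riok2, Wbscr22, Noc2l, and Exosc6 of the wider list were not analysed here.

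The nucleolar genes, the lists, and the tests were chosen with earlier results of these data known. Genes with values in every library are, per role, those with the highest RPKM, the largest rise, and the largest fall between 4 and 24 hr, and the 5 with the smallest p for vitC. Ubtf, Polr1c, Taf1d, Dkc1, Nop10, Ncl, Nolc1, Heatr1, Utp20, Bop1, Wdr12, Pes1, Gnl3, and Lyar were added after their values were seen. The alternatives were DESeq2 1.42.0, RLE scaling, no filter, a correction for GC content and length, thinning to the smallest total, Lars2 as a covariate or left out, no treatment term or block, and the omission of each library or pair.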

Additional observations from a re-analysis of the deposited data

How the results depend on the processing

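Between 4 and 24 hr the number of nucleolar genes called (21) was 0 with the Lars2 share as a covariate and 12 without a treatment term, and ranged from 2 to 21 when single libraries were left out. Rrn3 and Tcof1 changed sign with this covariate, to log2 fold changes of 0.29 and -0.49, neither past the threshold with edgeR. Between 4 and 16 hr the number (20) was 2 with this covariate, 12 without a treatment term, and 12 after thinning every library to the lowest total, and ranged from 2 to 18 when single libraries were left out. Between 16 and 32 hr 1 gene (Nop10) was called without the filter on low counts and 0 under the other settings run. For vitC 2 genes (Pop1 and Tcof1) were called with DESeq2 and 2 without the filter, and 0 to 2 when single pairs were left out, the 2 being without the 4 hr pair. The cause of these shifts was not tested, except that a fit with fewer libraries has fewer residual degrees of freedom. The shares of all tested genes called under these settings are not given here. The other counts, with RLE scaling, the correction for GC content and length, and without Lars2, were within 1.5 times the values reported. Without the replicate block, that is without the time term, 0 genes were called for vitC. The labels give no replicate numbers, and the pairs are libraries of the same time. Values of the genes named by rule at 16 and 24 hr and medians of the nucleolar genes were counted together, and 605 were kept. For a gene this means the same side of the threshold, and for a median a small shift. Of the gene values, 105 no longer passed the threshold, 16 came to pass it, and 2 that had passed changed sign. The 4 that moved were medians. Changes of sign in genes that had not passed were not counted. With 1 library per combination, differences between cultures could not be estimated, and depth limits mainly the vitC libraries of 16 and 24 hr, with 6969300 and 4753528 counts.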
